A study of Mus musculus with 24 samples.

Results

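Oxidative phosphorylation is the work of 5 protein complexes of the inner mitochondrial membrane. The genes of their subunits were compared across 5 groups of mice after traumatic brain injury (TBI) or sham surgery. Genes were taken from the deposited table by their symbols, namely Nduf followed by a, b, c, s or v and a number, Uqcr, Cox4 to Cox8, Atp5, Sdha to Sdhd, and the mitochondrial Nd, Co, Cytb and Atp genes, without pseudogene symbols ending in -ps. Of 36333 genes in the table, 86 matched the symbols, and 82 of them had a mean of at least 1 TPM (a transcript level corrected for transcript length and scaled to the same total in every library) over the 24 libraries. Cox4i2 lay just inside this limit at a mean of 2.22 TPM and Cox7b2 just outside at 0.926 TPM. Cox8c, Uqcrh-ps1 and Atp5c1-ps were near 0 TPM. Of the 82 genes, 80 were counted as subunits by their symbols, among them Cox7a2l and Ndufa4l2, whose standing as subunits was not checked. Atp5s and Atp5sl, named Dmac2l and Dmac2 in RefSeq, share the symbol but are not subunits and are kept apart below.

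Electrons from NADH enter at complex I (NADH dehydrogenase, the Nduf genes) and those from succinate at complex II (succinate dehydrogenase, the Sdh genes). They pass through complex III (cytochrome bc1 complex, the Uqcr genes) to complex IV (cytochrome c oxidase, the Cox genes), which reduces oxygen. Protons pumped on the way drive complex V (ATP synthase, the Atp5 genes). Neurons draw most of their ATP from this pathway, and several complex IV subunits exist as pairs of isoforms used in different tissues. Ndufa4 is grouped with complex I by its symbol here, although its protein is now assigned to complex IV.

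All 24 libraries came from male C57BL6N mice, 1 library per mouse, aged 12 to 16 weeks by the labels and killed 5 days after surgery. Sham mice (n = 4) were anaesthetised and had their skin opened without craniotomy, and the other mice underwent craniotomy and controlled cortical impact, so that craniotomy and impact cannot be told apart. Mice with TBI were given vehicle, PLX3397, Anakinra or PLX3397+Anakinra (n = 5 each). The paper lists the sham mice as given vehicle as well. PLX3397, an inhibitor of the receptor CSF1R on which microglia depend, was given in chow at 290 mg/kg from 90 min after injury. Anakinra, an antagonist of the interleukin-1 receptor, was injected subcutaneously at 100 mg/kg at 5 min and at 24, 48 and 72 h. The labels name the tissue cortex, whereas the methods describe a quadrant that also held striatum, dorsal hippocampus and thalamus.

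In such bulk tissue, fewer cells of a type and less RNA per cell cannot be told apart. Of 12 neuronal marker genes 11 were lower in vehicle than in sham mice, and their summed level was 7683 to 7981 TPM in sham mice, 4697 to 5691 in vehicle mice, 5374 to 6328 under PLX3397, 4906 to 5430 under Anakinra and 5734 to 6084 under PLX3397+Anakinra. The 10 microglia and macrophage markers summed to 433 to 458 TPM in sham, 2471 to 3452 in vehicle, 1165 to 1796 under PLX3397, 2725 to 3143 under Anakinra and 1010 to 1293 TPM under PLX3397+Anakinra. The 8 astrocyte markers summed to 2288 to 2569 TPM in sham and to between 4356 and 5688 TPM in every mouse with TBI. Of 7 oligodendrocyte markers 6 were higher in vehicle than in sham mice. The 5 red blood cell markers summed to 1507 to 4406 TPM in vehicle mice, 606 to 1072 under PLX3397 and 725 to 951 under PLX3397+Anakinra. Summed over 6 fibroblast and meningeal markers, the vehicle mice J17B (113 TPM) and J20B (144 TPM) stood apart from the other 3 (592 to 722 TPM). This sum was 62.2 to 68.3 TPM in sham mice and 477 to 1146 TPM under PLX3397. It was 797 to 1560 TPM under Anakinra, above all vehicle mice, and 713 to 1211 TPM under PLX3397+Anakinra. Of 5 skeletal muscle markers, 3 were under 0.5 TPM. How far these shifts in tissue make-up carry the subunit values below was not tested.

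The 13 protein genes of the mitochondrial genome (ND1 to ND6 and ND4L, CYTB, COX1 to COX3, ATP6 and ATP8) are in the table under their RefSeq names and were listed at 0 in all 24 libraries. Both mitochondrial ribosomal RNA genes were not at 0, and together they took between 0.985% and 1.31% of the TPM of a library. The zeros therefore give no level for the mitochondrially encoded subunits, and a comparison of nuclear with mitochondrial genes could not be made. All values below are for nuclear genes, 37 of complex I, 4 of complex II, 8 of complex III, 16 of complex IV and 15 of complex V.

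The subunits were abundant transcripts. Their mean levels ran from 2.22 TPM (Cox4i2) to 1937 TPM (Cox8a) with a median of 322 TPM, and 72 of the 80 were at 100 TPM or more. The most abundant gene of each complex was Ndufa4 (1081 TPM), Sdha (439 TPM), Uqcrh (677 TPM), Cox8a (1937 TPM) and Atp5b (1808 TPM). Summed over the 80 genes, they took 3.72% ± 0.191 (SD, n = 4) of all TPM in sham mice and 3.47% ± 0.0896 (n = 5) in vehicle mice. The share was 3.65% ± 0.0632 under PLX3397, 3.61% ± 0.132 under Anakinra and 3.62% ± 0.116 under PLX3397+Anakinra. Vehicle mice spanned 3.35% to 3.58% and sham mice 3.47% to 3.90%, so these groups overlapped. Complex V was the only one of the 5 complexes, by its summed share, whose vehicle mice (0.941% to 0.967%) all lay below all sham mice (0.969% to 1.06%).

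**Figure D1:**
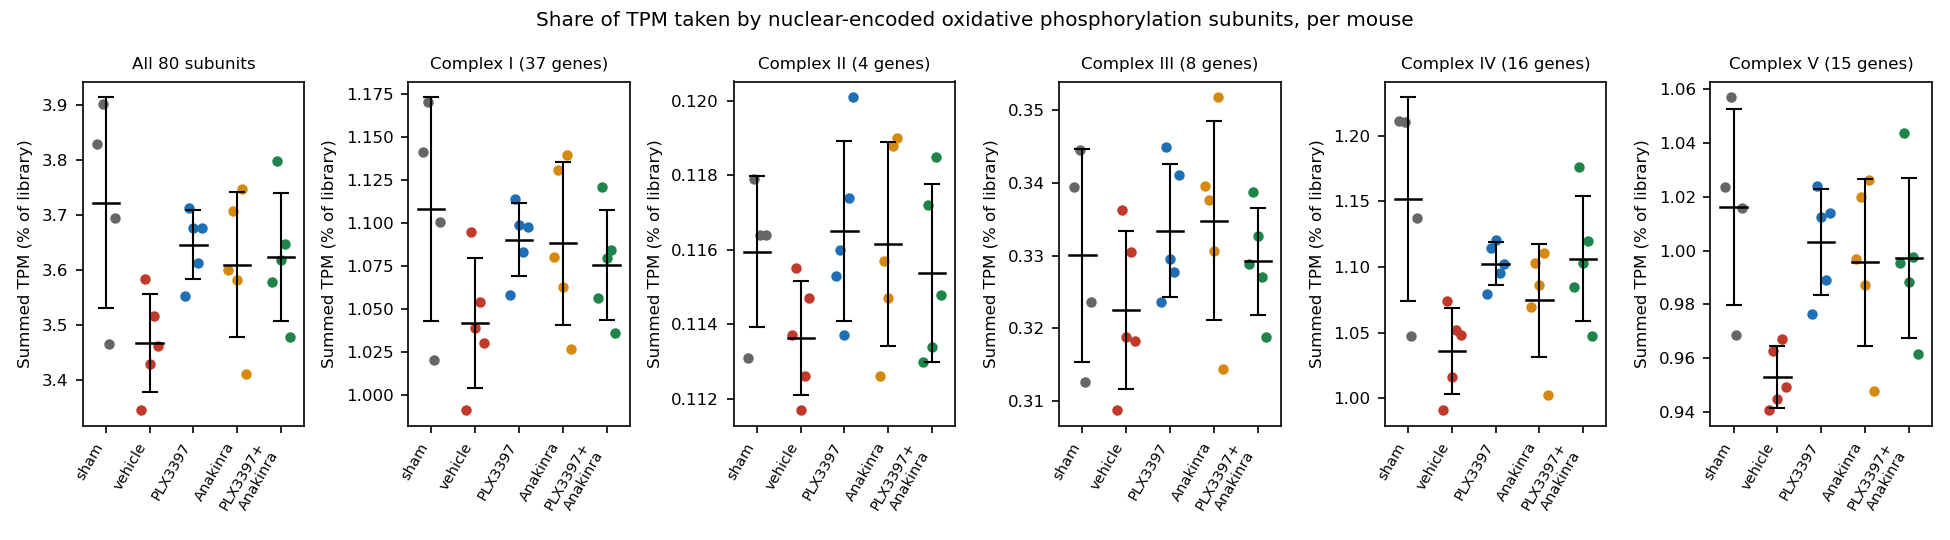
Summed TPM of the nuclear subunits as a percentage of each library (y axis, not starting at 0) for all 80 genes and for each complex, with 1 point per mouse and bars for the mean and SD of each group. The vehicle mean was the lowest of the 5 groups in every panel, and of vehicle and sham mice the points overlapped in every panel but that of complex V.

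After TBI with vehicle, few subunits rose and more fell, by small amounts. Against sham, 29 of the 82 genes were lower and 7 higher at an adjusted p below 0.05 (limma on log2(TPM + 1), adjusted over all 17267 genes tested). Of all genes tested, 27.7% were lower and 26.6% higher, so that 35.4% of the genes here fell and 8.54% rose. Among genes at 100 TPM or more, the level of most subunits, 51.3% of all genes were lower and 23.4% higher, against 36.1% and 5.56% of the 72 members at that level. The median log2 fold change was -0.09 over the 82 genes and -0.01 over all genes. Of the 36 called genes, 34 changed by less than 0.5 on the log2 scale, and the exceptions were the complex IV isoform genes Cox7a1 and Cox6b2. Complex I held 15 of the lower genes, complex IV 6, complex V 5, and complexes II and III 1 each, and Atp5sl made up the last.

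Within complex I, the 7 nuclear genes of the core, which carry the flavin, the iron-sulphur clusters and the quinone site, all had log2 fold changes below 0, and 5 of them were lower. Ndufv1, which binds NADH and the flavin, was at 279, 298, 274 and 285 TPM in sham mice and at 225, 246, 220, 243 and 228 TPM in vehicle mice. The groups did not overlap, and the log2 fold change was -0.29 (SE 0.04, adjusted p = 5.22e-07). Ndufs7, which carries the last iron-sulphur cluster before the quinone, was at 261, 229, 215 and 219 TPM in sham and at 180, 195, 160, 177 and 185 TPM in vehicle mice. It had the largest fall in complex I, with a log2 fold change of -0.36 (SE 0.06, adjusted p = 2.26e-05). The accessory genes Ndufb9 (-0.25, adjusted p = 0.000229) and Ndufa10 (-0.20, adjusted p = 5.45e-05) were lower as well. Ndufc2 (0.18, adjusted p = 0.00291) and Ndufv3 (0.17, adjusted p = 0.0258), also accessory genes, were the 2 of 37 that rose.

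Of the 4 genes of complex II, Sdha fell and Sdhc rose. Sdha, the flavoprotein that oxidises succinate, was at 473, 478, 462 and 484 TPM in sham and at 417, 424, 409, 409 and 408 TPM in vehicle mice, without overlap. Its log2 fold change was -0.20 (SE 0.03, adjusted p = 1.25e-05). Sdhc, a membrane anchor of the complex, was at 210, 226, 229 and 222 TPM in sham and higher in each vehicle mouse, at 269, 262, 263, 253 and 268 TPM. It rose by a log2 fold change of 0.25 (SE 0.04, adjusted p = 2.2e-06). For Sdhb, the iron-sulphur subunit, the fold change was 0.03 (95% interval -0.06 to 0.11). For the other anchor, Sdhd, it was -0.06 (95% interval -0.15 to 0.03), and neither passed the test.

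Complex III gave a single call. Uqcrc1, a core protein, was at 498, 450, 413 and 434 TPM in sham and at 384, 372, 353, 364 and 380 TPM in vehicle mice, which lay below every sham value. Its log2 fold change was -0.27 (SE 0.05, adjusted p = 0.000154). The Rieske iron-sulphur gene Uqcrfs1 (-0.05, adjusted p = 0.419) and the hinge protein gene Uqcrh (-0.01, adjusted p = 0.856) were not called.

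Complex IV held both the largest rises and the largest fall. Cox7a1, the isoform of subunit 7a best known from heart and skeletal muscle, was at 9.32, 14.5, 10.9 and 10.5 TPM in sham and at 32.0, 18.8, 34.8, 25.7 and 34.4 TPM in vehicle mice. All vehicle values lay above all sham values, and the log2 fold change was 1.28 (SE 0.14, adjusted p = 2.74e-08). It took 2.48% ± 0.394 of the TPM of Cox7a1 and Cox7a2 together in sham and 6.31% ± 1.73 in vehicle mice, while Cox7a2 itself was not called. Cox6b2, the isoform of subunit 6b best known from testis, was at 10.1, 11.0, 11.8 and 7.13 TPM in sham and at 18.5, 19.3, 29.2, 18.8 and 18.7 TPM in vehicle mice. The groups did not overlap, with a log2 fold change of 0.99 (SE 0.17, adjusted p = 2.8e-05). Cox6a2, the muscle isoform of subunit 6a, was at 46.3, 48.0, 37.2 and 51.8 TPM in sham and at 34.5, 37.2, 28.3, 30.4 and 41.0 TPM in vehicle mice. Its groups overlapped, and it fell by 0.41 on the log2 scale (SE 0.11, adjusted p = 0.00379). The isoform genes Cox4i2 (0.12, adjusted p = 0.472) and Cox8b (0.03, adjusted p = 0.901) were not called. The widely used subunits Cox8a (-0.29, adjusted p = 0.00023) and Cox5a (-0.24, adjusted p = 4e-06) were lower, as were Cox4i1, Cox6a1 and Cox7b.

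In complex V, both large subunits of the catalytic F1 head fell. Atp5a1, the alpha subunit, was at 1182, 1209, 1170 and 1181 TPM in sham and at 1018, 1050, 964, 986 and 1009 TPM in vehicle mice. The groups were apart, with a log2 fold change of -0.24 (SE 0.03, adjusted p = 1.1e-06). Atp5b, the beta subunit that forms ATP, fell by 0.21 on the log2 scale (SE 0.03, adjusted p = 1.25e-05) and did not overlap between the groups. The c-ring, the rotor in the membrane, has 1 protein encoded by the genes Atp5g1, Atp5g2 and Atp5g3. Atp5g1 (-0.14, adjusted p = 0.00593) and Atp5g3 (-0.15, adjusted p = 0.00138) fell and Atp5g2 rose (0.22, adjusted p = 0.00383). Atp5g2 made up 25.2% ± 1.99 of the TPM of these genes in sham and 30.2% ± 1.70 in vehicle mice, with all vehicle mice (28.0% to 32.5%) above all sham mice (23.0% to 27.6%).

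**Figure D2:**
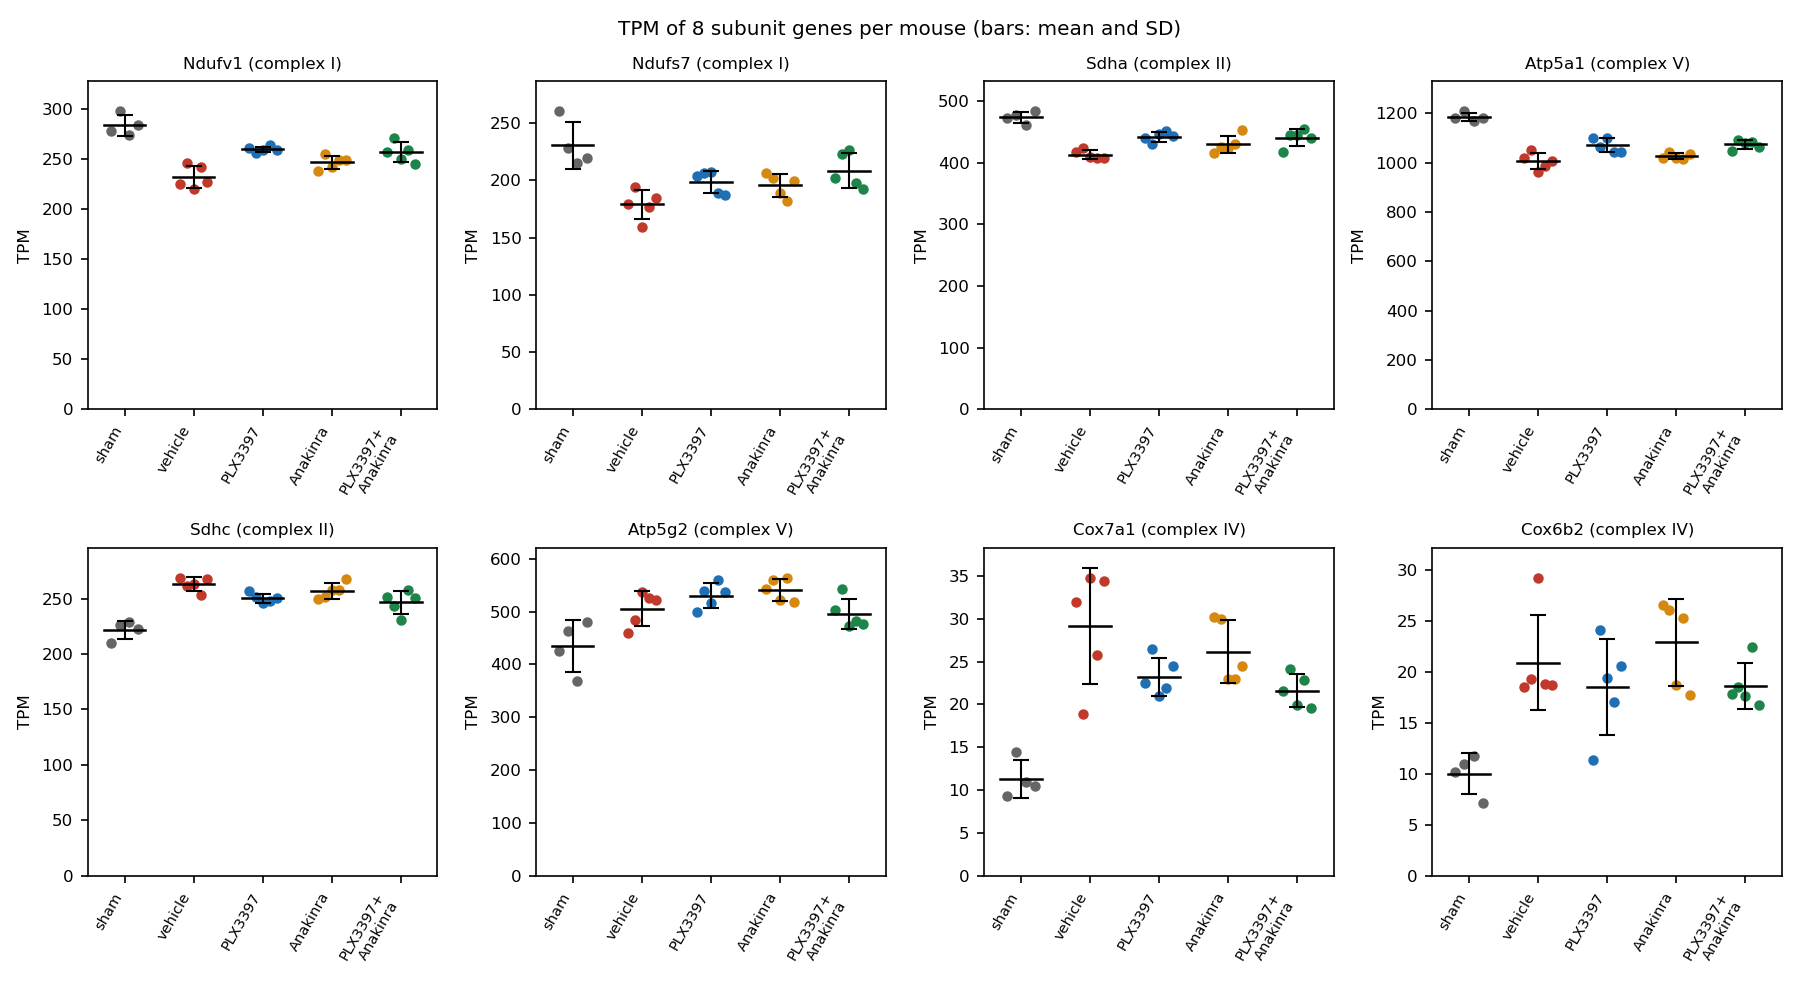
TPM (y axis, from 0) of 8 subunit genes in each mouse by group, with bars for the mean and SD. Ndufv1, Ndufs7, Sdha and Atp5a1 are lower in all vehicle mice than in any sham mouse, Sdhc, Cox7a1 and Cox6b2 are higher, and Atp5g2 overlaps.

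Nuclear genes of the chain are known targets of nuclear respiratory factors, so the 250 bases before the first start that RefSeq lists (GRCm38.p6) were searched on both strands. A promoter was found for 68 of the 82 genes. The letters GCGCANGCG of nuclear respiratory factor 1 (NRF1) were in 13 of them (19.1%) and in 5.33% of 27025 promoters. They were in 17.4% of 23 genes lower in vehicle mice, in 16.7% of 6 higher genes and in 20.5% of 39 that were not called. The letters TNAAGGTCA of the estrogen-related receptors were in 2.94% (1.14% of all), CCGGAAGT of ETS factors in 4.41% (2.93%), AAGATGGCG of YY1 in 0 (0.607%) and CCAAT in 44.1% (34.5%). Bases after the start were not searched for any of these letters. The promoters of a gene that fell (Sdha) and of 3 that rose are given 5′ to 3′ on the strand of the gene, with NRF1 and CCAAT matches in capitals. Sdha (chr13:74350241-74350490, minus strand) holds 3 NRF1 matches and a CCAAT match. Atp5g2 (chr15:102671048-102671297, minus strand) holds a palindrome that matches NRF1 on both strands. Cox7a1 (chr7:30183921-30184170, plus strand) and Cox6b2 (chr7:4753095-4753344, minus strand) hold 2 CCAAT matches each, which read ATTGG on this strand.
Sdha: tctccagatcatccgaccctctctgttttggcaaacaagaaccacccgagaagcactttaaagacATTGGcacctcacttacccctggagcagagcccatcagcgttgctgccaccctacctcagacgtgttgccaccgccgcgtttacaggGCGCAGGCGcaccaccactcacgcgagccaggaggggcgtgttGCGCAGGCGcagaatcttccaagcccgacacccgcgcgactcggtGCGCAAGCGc
Atp5g2: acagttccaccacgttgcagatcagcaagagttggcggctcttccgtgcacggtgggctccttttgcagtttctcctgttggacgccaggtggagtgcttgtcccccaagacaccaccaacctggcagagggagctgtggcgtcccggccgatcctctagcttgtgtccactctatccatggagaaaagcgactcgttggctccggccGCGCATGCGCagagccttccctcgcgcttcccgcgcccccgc
Cox7a1: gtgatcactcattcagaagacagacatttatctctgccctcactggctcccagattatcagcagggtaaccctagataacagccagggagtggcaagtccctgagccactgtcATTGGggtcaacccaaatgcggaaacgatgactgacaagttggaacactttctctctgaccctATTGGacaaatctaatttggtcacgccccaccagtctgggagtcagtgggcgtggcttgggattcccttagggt
Cox6b2: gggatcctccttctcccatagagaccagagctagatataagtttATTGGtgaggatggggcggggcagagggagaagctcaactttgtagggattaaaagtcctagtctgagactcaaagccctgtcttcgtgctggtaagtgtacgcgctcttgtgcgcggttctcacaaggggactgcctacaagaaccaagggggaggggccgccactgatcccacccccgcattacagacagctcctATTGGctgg

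The drug groups were also compared with sham, and these comparisons share the 4 sham mice, so that their values are given side by side. PLX3397 left 10 genes lower and 5 higher, against 22.5% and 22.7% of all genes. Anakinra left 20 lower and 9 higher (29.2% and 25.1% of all genes, and 14 lower and 11 higher when the libraries were rescaled by their median ratio), and PLX3397+Anakinra 11 lower and 5 higher (18.1% and 20.7%, and 7 lower and 5 higher when rescaled). The log2 fold change of Ndufv1 was -0.13 under PLX3397, -0.20 under Anakinra and -0.14 under PLX3397+Anakinra. That of Atp5a1 was -0.15, -0.21 and -0.14, and that of Sdha was -0.10, -0.14 and -0.11, all 6 lower at the threshold. Cox7a1 was higher in each of these groups, with log2 fold changes of 0.99, 1.15 and 0.89, and Cox6b2 likewise with 0.81, 1.12 and 0.85. Sdhc was higher too, with 0.17, 0.21 and 0.15. For Ndufs7 the values were -0.21 and -0.23 under the single drugs, both lower, and -0.14 (adjusted p = 0.0687) under PLX3397+Anakinra. Over any difference among the 5 groups (limma F-test), 26 of the 82 genes were called, against 51.9% of all genes tested.

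Under PLX3397, 4 genes were higher than in vehicle mice and 0 lower, against 3.23% and 6.66% of all genes. Among them were Ndufv1 and Ndufa10 of complex I and Sdha of complex II. No share for genes at 100 TPM or more, the level of most subunits, stands beside the counts of this comparison. Ndufv1 was at 261, 257, 260, 264 and 259 TPM under PLX3397, above all vehicle mice, with a log2 fold change of 0.16 (SE 0.04, adjusted p = 0.00321). Sdha was at 440, 430, 446, 452 and 444 TPM, again above all vehicle mice (0.10, SE 0.03, adjusted p = 0.0407). The same vehicle mice entered the comparison with sham, so a fall there and a rise here are not independent. Without the vehicle mouse J17B the count of higher genes was 10, and without J18B, J19B or the PLX3397 mice J01 or J19 it was 2. In this comparison all 10 microglia and macrophage markers were lower, and 4 of 12 neuronal markers were higher. The part of these in the subunit values was not tested.

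**Figure D3:**
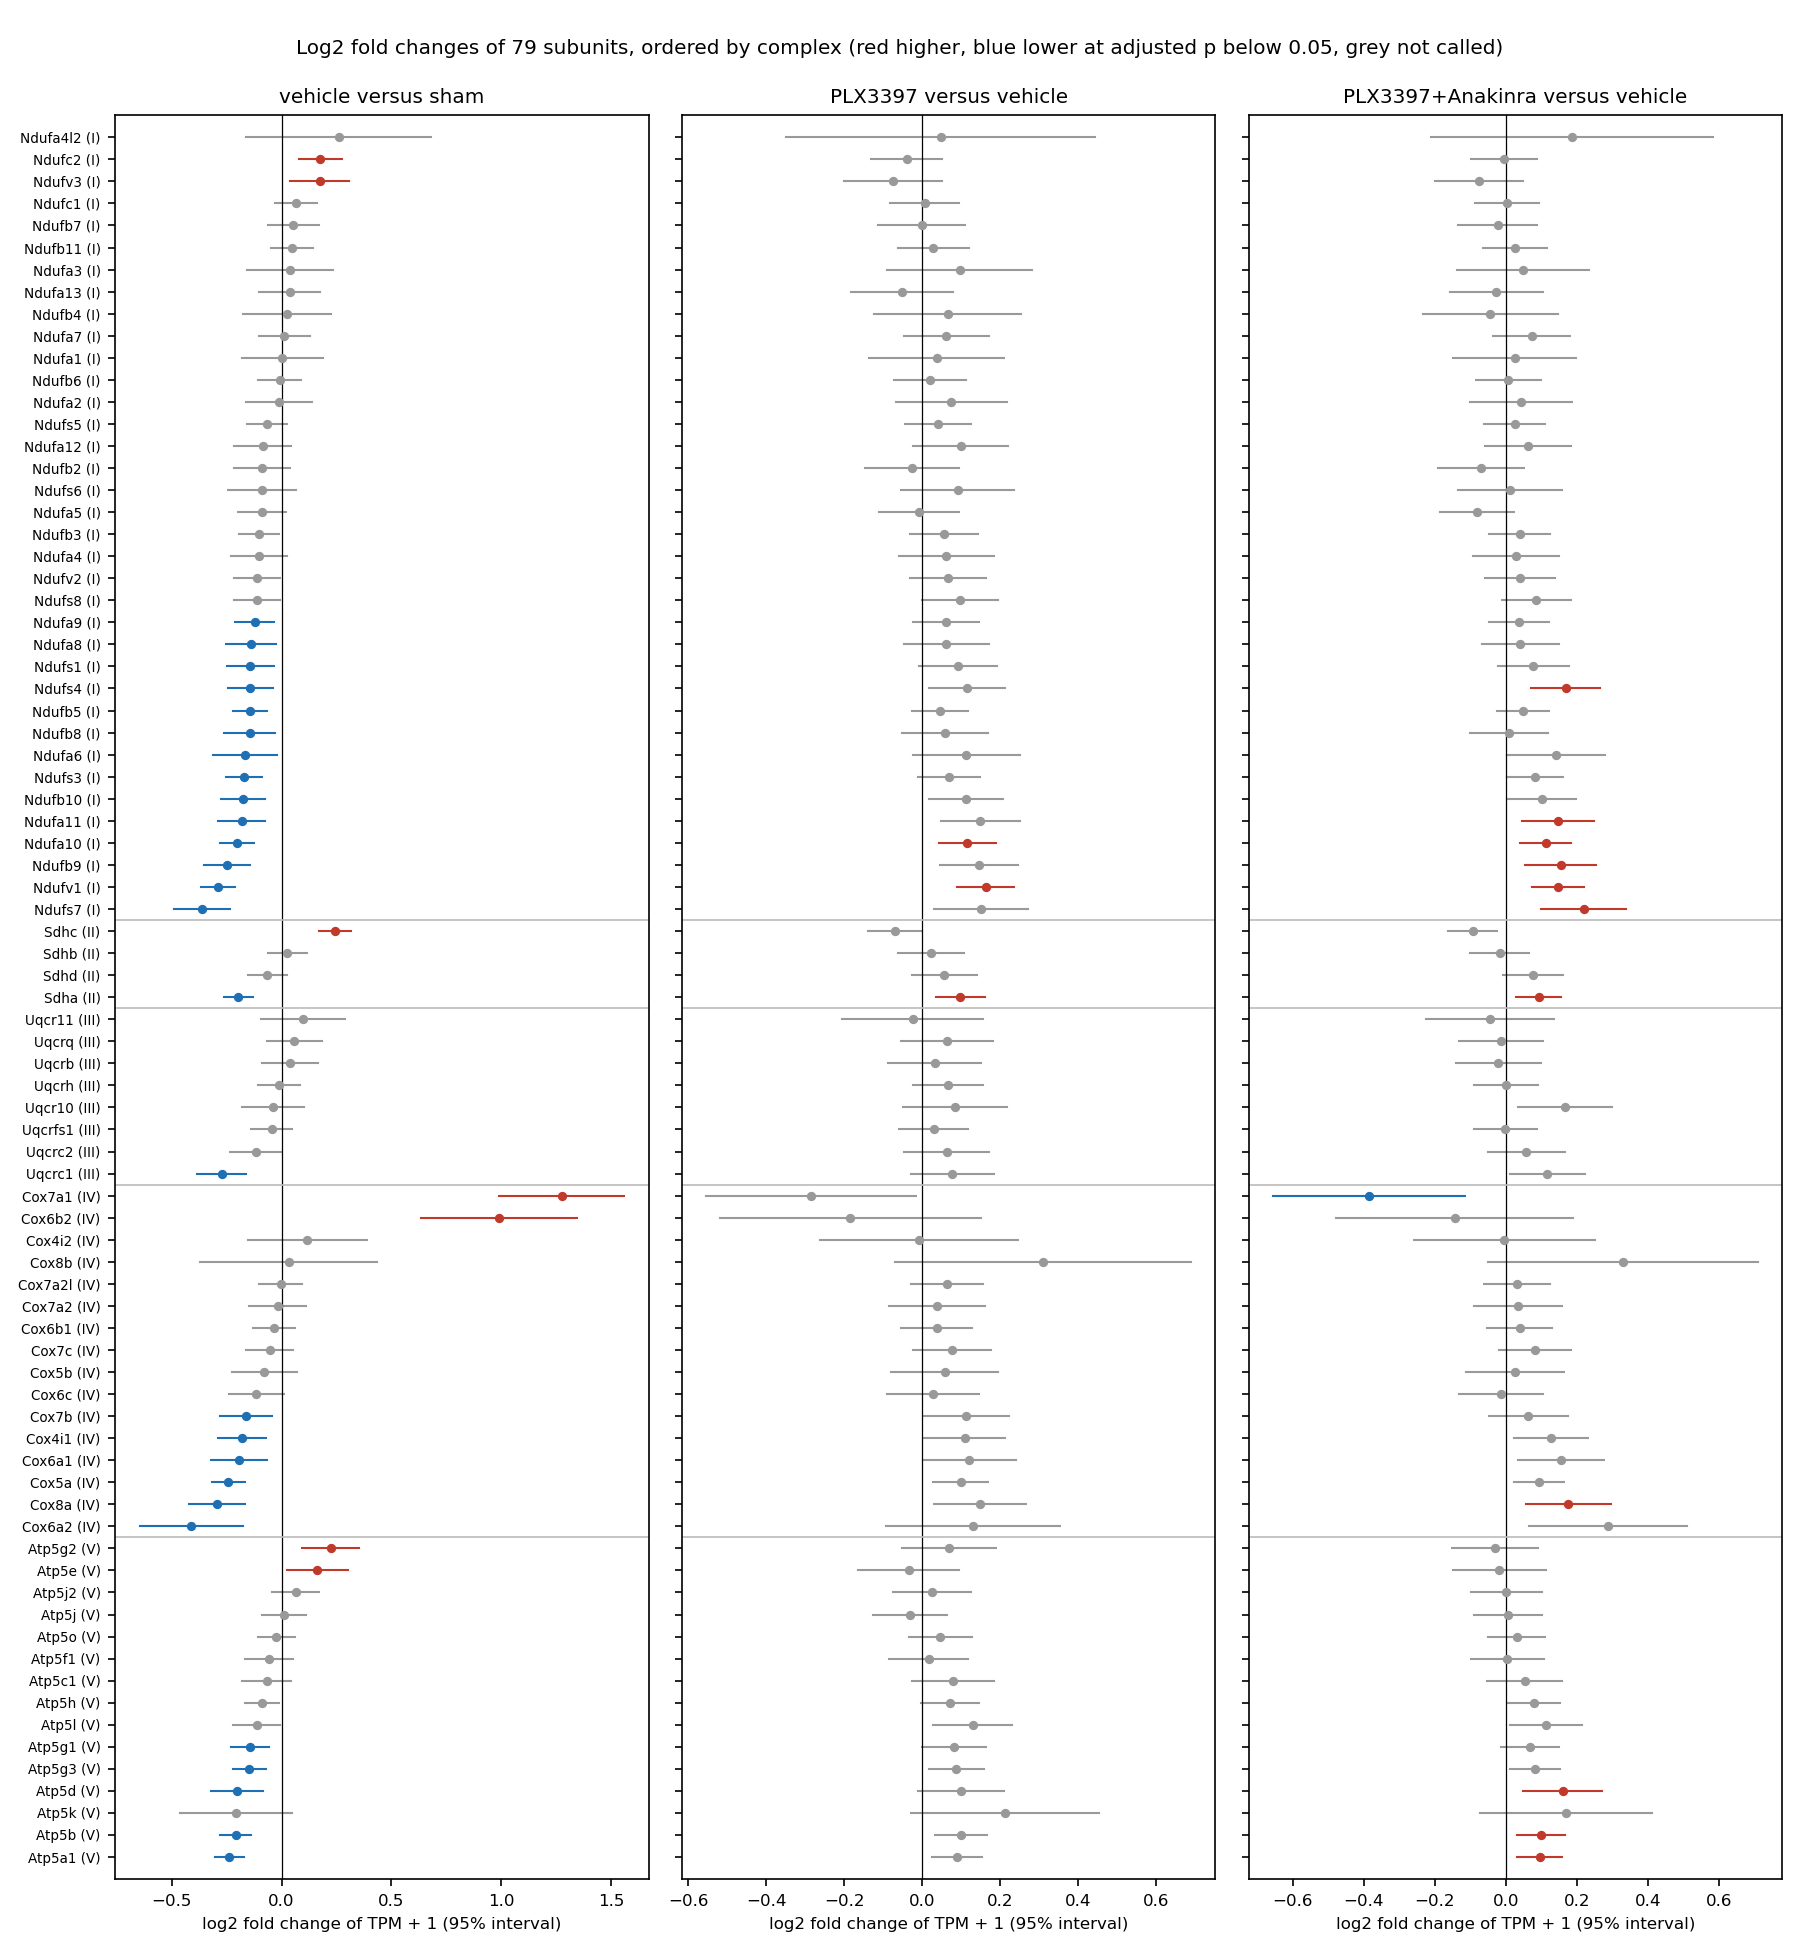
Log2 fold change of TPM + 1 (x axis, points) with its 95% interval (lines) for 79 of the 80 subunit genes (the other is not reported here by name, y axis, ordered by complex and by the vehicle against sham value), in 3 comparisons with their own x axes. Red points were higher and blue points lower at an adjusted p below 0.05, and the 27 blue points against sham lie within -0.41 and -0.12. All 3 comparisons use the same vehicle mice, so a deviation of these mice enters the first with the opposite sign to the others.

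PLX3397+Anakinra gave 11 genes higher than vehicle and 1 lower, against 7.88% and 9.6% of all genes. The share among genes at 100 TPM or more is not given here, so no excess over genes of like level is shown. The higher genes were Ndufv1, Ndufs7, Ndufs4, Ndufa10, Ndufa11 and Ndufb9 of complex I, Sdha, Cox8a, and Atp5a1, Atp5b and Atp5d of the F1 head, with log2 fold changes of 0.09 to 0.22. Ndufs7 had the largest of them, at 202, 223, 227, 198 and 193 TPM against 160 to 195 TPM in vehicle mice, which overlapped (0.22, SE 0.06, adjusted p = 0.0104). Ndufs4, an accessory subunit of complex I at which inherited deficiency is well known, was at 97.0 to 110 TPM against 89.2 to 97.0 TPM in vehicle mice, adjoining ranges (0.17, adjusted p = 0.0141). Cox7a1 was the lower gene, at 21.6, 24.2, 19.9, 22.8 and 19.6 TPM (-0.39, SE 0.13, adjusted p = 0.0425), with the vehicle mouse J17B (18.8 TPM) below all of them. This call was lost with all genes above 0 in the fit (adjusted p = 0.0781), with only the compared groups (0.0895), and without any 1 of J01B, J18B, J20B, J03, J09, J10 or J17 (0.056 to 0.137). The count of higher genes was 3 without the vehicle mouse J18B and 4 when the libraries were rescaled by their median ratio. All 10 microglia and macrophage markers were lower and 7 of 12 neuronal markers higher in this comparison. All 5 red blood cell markers were lower as well, here and under PLX3397 alone, and their part in the subunit values was not tested.

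Anakinra alone gave 0 higher and 0 lower genes against vehicle, where 0.0695% of all genes were higher and 0.0463% lower in limma. The smallest adjusted p among the members was 0.228. Between PLX3397+Anakinra and PLX3397 there were 0 calls, against 0.00579% of all genes higher and 0.145% lower. Against Anakinra, PLX3397+Anakinra had Ndufa10 higher (0.12, SE 0.04, adjusted p = 0.0306) and 0 lower, where 4.67% of all genes were higher and 8.1% lower. Ndufa10 was at 265, 253, 246, 247 and 258 TPM under PLX3397+Anakinra and at 230, 230, 242, 230 and 239 TPM under Anakinra, without overlap. The call was lost after median-ratio rescaling (adjusted p = 0.0899), with only the compared groups in the fit (0.052), and without any 1 of J05, J06, J21, J03 or J17 (0.069 to 0.0774). The interaction of the drugs was called for 0 members and 0% of all genes.

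The calls differed with transcript length, among the members and among all genes. Of the 20 members with transcripts of 1300 nt or more, 12 were lower and 2 higher in vehicle than in sham mice, with a median log2 fold change of -0.14. Of all genes of that length 31.1% were lower and 28.4% higher, and of all genes at 100 TPM or more 51.3% were lower. Of the 34 members under 700 nt, 7 were lower and 5 higher, with a median of -0.03, and of all genes under 700 nt 13.6% were lower and 34.5% higher. Over all genes tested, the median was -0.02 for transcripts of 1300 nt or more and 0.10 for those under 700 nt. The spread between mice of 1 group was wider for the short members (median SD 0.0932 on the log2 scale, 0.0697 for the long ones). In sham mice the score of the short members, their mean log2 level relative to all 24 libraries, ran from -0.16 in J15 to 0.03 in J08. The same score of 71 ribosomal protein genes, which are short and abundant, ran from -0.34 to -0.19 in sham mice and from -0.05 to 0.19 in vehicle mice. Its part in the values by length was not tested.

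**Figure D4:**
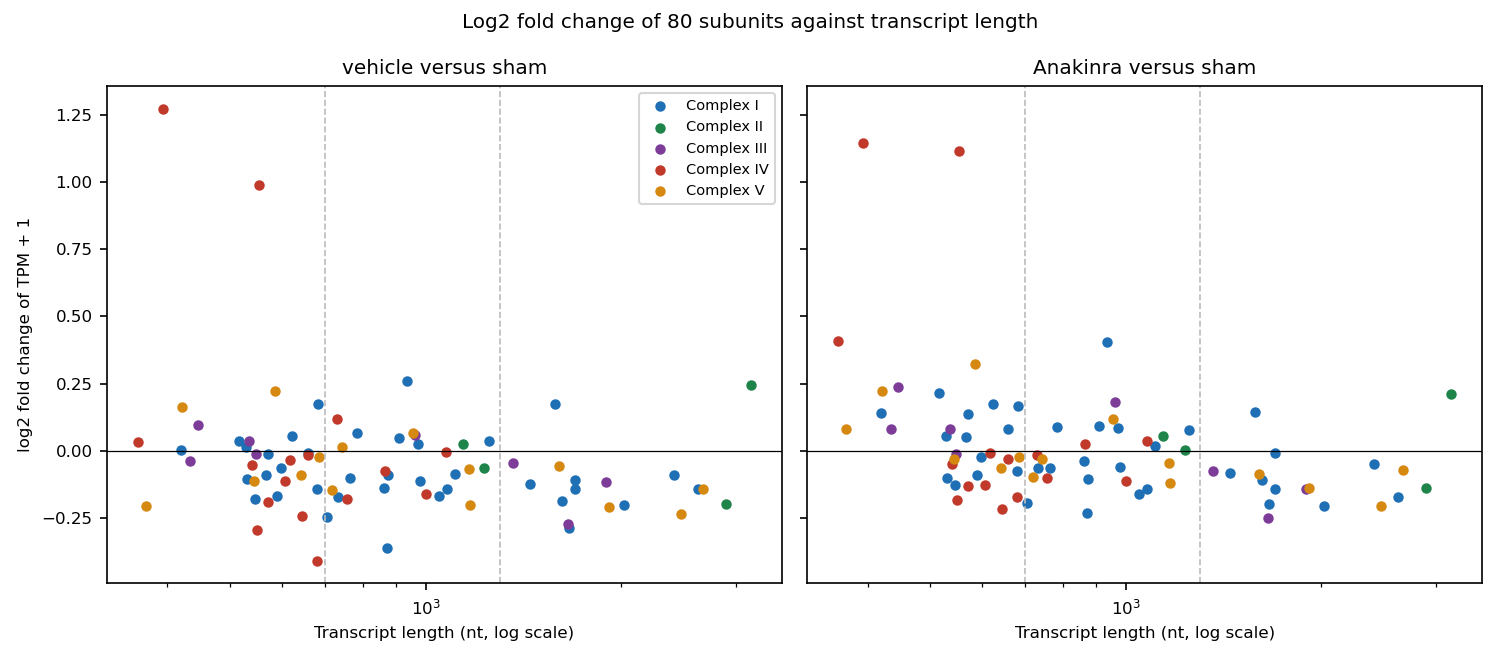
Log2 fold change of TPM + 1 (y axis) of the 80 subunit genes against transcript length in nucleotides (x axis, log scale), for vehicle and for Anakinra against sham, coloured by complex, with dashed lines at 700 and 1300 nt. Most points of 1300 nt or more lie below 0, and Sdhc is the longest and lies above 0.

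The other genes of the pathway were read from lists by function, and their counts stand beside the 27.7% of all genes lower and 26.6% higher in vehicle than in sham mice, or 51.3% and 23.4% of genes at 100 TPM or more. Of 20 genes of the TCA cycle and pyruvate entry, which feed NADH and succinate to the chain, 13 (65%) were lower and 2 (10%) higher. Idh3a (-0.34, adjusted p = 6.15e-07) was among the lower ones, and Suclg2 (0.71, adjusted p = 3.8e-08) and Idh2 (0.50, adjusted p = 3.82e-06) were the higher ones. Of 22 glycolytic genes, 15 (68.2%) were lower and 4 (18.2%) higher, and Hk2, a hexokinase, had the largest rise (2.03, adjusted p = 3.87e-12). Of 11 chain genes outside the symbol rule, 5 were lower, with cytochrome c1 (Cyc1, -0.22) and cytochrome c (Cycs, -0.19) among them. Another 4 were higher, namely Nnt and the electron transfer flavoprotein genes Etfa, Etfb and Etfdh. Assembly factors were lower for 3 of 13 genes of complex I and for 8 of 23 of complexes III and IV, with 0 and 1 higher. These shares of lower genes, 23.1% and 34.8%, are near that of all genes.

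Regulators of mitochondrial gene expression were more often lower than higher. Of 14 measured genes, 7 (50%) were lower and 1 higher in vehicle than in sham mice (27.7% and 26.6% of all genes), and the lower ones included the coactivator Ppargc1a (-0.26, adjusted p = 0.00337) and the nuclear receptors Esrra (-0.27, adjusted p = 0.00231) and Esrrg (-0.40, adjusted p = 0.000593). Gabpa, which encodes a subunit of nuclear respiratory factor 2, was the higher one (0.50, adjusted p = 3.8e-07). Of 17 genes of mitochondrial mass, import and dynamics, 10 (58.8%) were lower and 1 higher, with Pink1 (-0.43) and Mfn2 (-0.41) lowest. These 17 genes are abundant, with a sum of 3896 to 4001 TPM in sham mice. Of all genes at 100 TPM or more, 51.3% were lower and 23.4% higher, so the share of lower genes is near that of abundant genes. Against vehicle, PLX3397+Anakinra gave 5 of 20 TCA cycle genes and 3 of 17 genes of mitochondrial mass, import and dynamics higher (25% and 17.6%, against 7.88% of all genes), with 0 lower in both lists (9.6% of all genes). These shares of all genes are not matched for level. Over all 24 libraries, the genes outside the members most alike to the mean of their standardised levels were Idh3g (Pearson r = 0.805), Pebp1 (0.804) and Msra (0.796), given as a description.

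By the criteria that the study used for differential genes (unadjusted p below 0.05, a ratio of group means above 2 and a difference above 4 TPM), Cox7a1 and Cox6b2 were the only subunits called between vehicle and sham, where 5.26% of all genes met them.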

How the data were processed

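RNA of 24 mice was sequenced from polyA-selected paired-end libraries. The authors mapped the reads to GRCm38 in CLC Genomics Workbench and deposited TPM per gene, so that values between genes are per transcript length. Read counts and the depth of the libraries are not in the files used here, no counting intervals can be given, and precision rests on the spread between 4 or 5 mice. A rounded copy and a filtered copy with the authors' p-values and F values were not used. Samples were grouped by their labels, and none was left out. The labels give the strain as C57BL6N, and the methods name another substrain.

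The fit took the 17267 genes whose mean reached 0.5 TPM. Their log2(TPM + 1) values entered limma (version 3.58.1, R version 4.3.3) with a variance trend, all 24 libraries and a mean for each group. Fold changes are on this scale, which understates changes of low genes. Every p and adjusted p of a gene comes from this fit, with Benjamini-Hochberg adjustment over all 17267 genes, and a call is an adjusted p below 0.05. On data simulated from the residuals of these libraries for vehicle versus sham (17267 genes), 32.3% of genes changed 1.2-fold, 81.7% of those changed 1.5-fold and 97.5% of those changed 2-fold were called, and 0.0375% of unchanged genes. Far fewer genes were changed in this simulation than the 27.7% lower and 26.6% higher called in the data. The adjustment is stricter when few genes change, so these rates are not those of the comparison itself. Named genes were up to 5 called ones with the smallest adjusted p in each direction and comparison, the most abundant of each complex, the Sdh genes, isoform sets and list members. Some genes that meet this rule are counted but not reported here by name. The members and lists were chosen with earlier results of these data known. Gene positions come from RefSeq and transcript lengths (median over principal transcripts) from GENCODE M21, both on GRCm38, with 3 members matched by an older symbol. The NRF1 and YY1 letters were shortened after a first search with longer ones. Alternatives were a pseudocount of 0.1, other filters, median-ratio rescaling, removal of the mt- genes, only the compared groups, the study's criteria, a block for shared animal numbers and leaving out each mouse. Leaving out J17B and J20B together was added after seeing the data. Vehicle and PLX3397 mice share 3 animal numbers.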

Additional observations from a re-analysis of the deposited data

Results flagged for a closer look

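In 20 named genes and the summed shares of the complexes, 130 groups of mice were examined for a mouse whose gap to the nearest other mouse was large for the range of its group, and 2 were found. Chance alone gives about 1 in 20, a higher rate than the 2 of 130 found. The vehicle mouse J18B had 29.2 TPM of Cox6b2, and the other 4 vehicle mice had 18.5 to 19.3 TPM. The PLX3397 mouse J12 had 2003 TPM of Cox8a, against 1917 to 1936 TPM in the rest of its group.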

How the results depend on the processing

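Calls of single genes were repeated under each alternative. Leaving out single mice aside, 78 lost significance and 713 did not, among them 27 lost after rescaling, 25 with only the compared groups and 18 with all genes above 0, and 206 were lost and 2506 not when 1 mouse was left out. None of these reversed. With all genes above 0 in the fit, PLX3397+Anakinra versus vehicle gave 5 higher and 0 lower. After median-ratio rescaling it gave 4 higher and 2 lower, PLX3397+Anakinra versus sham gave 7 lower, and PLX3397+Anakinra versus Anakinra gave 0 higher. With only the compared groups in the fit, 6 genes were lower under PLX3397 and 6 under PLX3397+Anakinra than in sham, 2 were higher under PLX3397 than vehicle, 5 were higher and 0 lower under PLX3397+Anakinra than vehicle, and 0 were higher than under Anakinra. By the study's criteria, 2 were higher and 0 lower in vehicle than in sham, 1 and 0 under PLX3397, 2 and 0 under Anakinra and 0 and 0 under PLX3397+Anakinra, and all comparisons between mice with TBI gave 0. These criteria ask for a ratio above 2.

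Without the vehicle mice J17B and J20B, PLX3397 versus vehicle gave 7 higher and 1 lower. With a block for the 3 animal numbers that PLX3397 and vehicle mice share, it gave 0 higher and 1 lower from 6 libraries, and the same 6 libraries without the block gave 0. The deviations of these pairs correlated at 0.217, 0.022 and -0.157, and 3 pairs are too few to tell whether they share more than a number.

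Leaving out 1 mouse at a time, PLX3397 versus vehicle ranged from 2 to 10 higher and from 0 to 1 lower, with 10 and 1 without vehicle J17B. PLX3397+Anakinra versus vehicle ranged from 3 to 13 higher and from 0 to 2 lower, with 3 without vehicle J18B. PLX3397+Anakinra versus sham ranged from 4 to 8 higher, with 8 without sham J07, and from 6 to 13 lower, with 6 without sham J08. PLX3397+Anakinra versus Anakinra ranged from 0 to 1 in both directions, vehicle versus sham from 5 to 7 higher and from 23 to 35 lower. The cause of these shifts was not tested. Depth is not known from TPM. In the simulated data for vehicle versus sham, 32.3% of 1.2-fold changes over all genes were called, a rate that was not determined for these genes alone. Far fewer genes changed there than were called in the data, so the rate does not carry over to them. A median for mitochondrially encoded genes could not be given.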
